A study of Mus musculus with 2 samples.

Results

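Nuclear-encoded genes of the mitochondrial respiratory complexes and their assembly factors were compared between 2 RNA libraries, the GANT61-labelled (M2+GANT61) and the DMSO-labelled (M2+DMSO). Members were the rows whose gene ID starts with Nduf, Uqcr or Atp5, or is Cox followed by a digit, together with Cyc1 and Cycs, and with Cox7a1 and Cox8b left out. This rule took 97 of the 20003 genes of the table. Among them were 73 structural subunits, 19 assembly factors, 4 tissue isoforms and Ndufb4c, a copy of Ndufb4 annotated as a processed pseudogene. Both libraries were labelled as RAW 264.7, a mouse macrophage line grown in DMEM with 10% serum, polarized towards the alternatively activated (M2) state with macrophage colony-stimulating factor (M-CSF) at 20 ng/mL overnight and interleukin 4 (IL-4) at 10 ng/mL. GANT61, an inhibitor of the GLI transcription factors that carry out Hedgehog signalling, was given at 10 µM, and the other library received the solvent DMSO, in both cases 4 h ahead of IL-4. For IL-4 itself, the labels give both 15 min (treatment) and 24 h (growth), and which of these applies was not settled here. The question of the series was how Hedgehog blockade acts on macrophage transcripts.

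The respiratory chain of the inner mitochondrial membrane passes electrons from NADH and succinate to oxygen through complexes I to IV, with cytochrome c between complexes III and IV, and pumps protons that drive ATP synthase, also called complex V. Most subunits are encoded in the nucleus, while a small core is encoded by mitochondrial DNA and was not analysed here. Assembly factors insert cofactors and join modules, in general without remaining in the finished complex. Counted with them here were Cox7a2l, which joins complexes III and IV in supercomplexes, and Atp5s, a coupling factor of ATP synthase. In macrophages, alternative activation by IL-4 is known for a high use of oxidative phosphorylation, and classical activation for glycolysis.

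The libraries held 61632784 reads (DMSO) and 57705874 reads (GANT61). Levels are given in CPM, read counts scaled to library size with the trimmed mean of M values, and a ratio is the GANT61-labelled level over the DMSO-labelled level with its 95% exact Clopper-Pearson interval. Each group had a single library, so that no replicate spread and no test across conditions could be given, and the intervals cover counting error only. Transcripts of other cell types were present in both libraries despite the label of a macrophage line. By the size rule below, all 12 adipocyte markers were lower with GANT61, with summed levels of 6602 CPM (DMSO) and 1047 CPM (GANT61), while 10 of 11 macrophage markers were higher, with sums of 2506 and 7819 CPM. The 8 fibroblast markers summed to 9247 and 9466 CPM, with 0 higher and 1 lower (Postn). The 8 epithelial markers summed to 3667 and 3175 CPM, with 1 higher (Krt5) and 2 lower (Krt18 and Csn2). None of the markers in these 4 lists was at 0 reads in either library. Of 6 endothelial markers 2 were lower (Cldn5 and Tek) and 0 higher. Of 6 pericyte and smooth muscle markers 1 was lower (Kcnj8) and 0 higher. In a bulk library, fewer cells of a type and less RNA per cell cannot be told apart.

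Most members were somewhat lower in the GANT61-labelled library, and few by much. A gene was called higher or lower where its ratio was at least 1.5, or at most 0.667, its interval excluded 1 and its mean level was at least 1 CPM. By this rule 1 member was lower (Ndufaf6) and 1 was higher (Cox6a2) among the 96 members with a mean of at least 1 CPM, where 10.3% of the 13939 genes considered were lower and 14.1% higher. By a smaller size, at least 20% lower or 25% higher with an interval excluding 1, 41 members (42.7%) were lower against 21.5% of all genes, and 4 members (4.17%) were higher against 24.0%. The ratio was below 1 in 81 of the 96 members, or 84.4%, against 51.0% of all genes considered. The interval lay wholly below 1 in 74 members and wholly above 1 in 10, against 40.5% and 39.1% of all genes, and these shares also depend on how deeply a gene was read. The median log2 ratio was -0.29 over the members and -0.01 over all genes considered. The middle of the distribution was narrower for the members, with an interquartile range of 0.28 on the log2 scale against 0.59 for all genes. A mean of at least 10 CPM was reached by 90 of the 96 members and by 10428 of the 13939 genes. Counting error is larger at low levels, and its part in the difference of these ranges was not tested. Members together took 1.17% of all reads with DMSO and 0.950% with GANT61. Marker levels of several cell types, adipocytes and macrophages among them, differed between the same 2 libraries, and their part in the members' ratios was not tested.

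**Figure D1:**
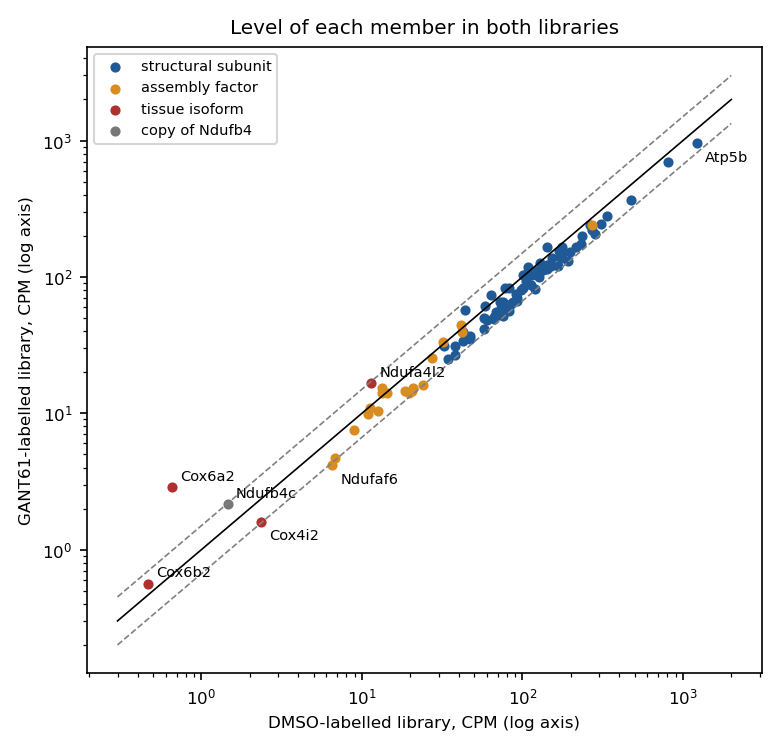
Level of each of the 97 members in the DMSO-labelled library (x axis, CPM, log axis) and the GANT61-labelled library (y axis, CPM, log axis), coloured by class, 1 point per gene and 1 library per axis. The solid line marks equal levels and the dashed lines a ratio of 1.5 either way. Most structural subunits sit just below the line of equal levels, and Cox6a2, at 0.655 and 2.89 CPM, lies above the upper dashed line.

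Pooled over the complexes, structural subunits were lower by more, at the median, than assembly factors. They had 0 of 73 members called in either direction, a median log2 ratio of -0.30 and a ratio below 1 in 65. Assembly factors had 0 of 19 higher, 1 of 19 lower, a median of -0.16 and a ratio below 1 in 15. Over all genes considered, 14.1% were higher, 10.3% were lower and 51.0% had a ratio below 1. The spread was wider among assembly factors, with an interquartile range of 0.44 against 0.23 for structural subunits. With the trend of the ratio on gene length removed, the medians were -0.20 and -0.08. With members that may share reads left out they were -0.30 and -0.27, so the difference between the classes nearly closed. The assembly factors left out (Cox20, Cox7a2l, Cox16, Cox11 and Cox15) were all of complex IV, which supplied 10 of the 19. By complex, structural subunits and assembly factors had medians of -0.37 and -0.31 in complex I and -0.15 and -0.06 in complex IV. In complex V the order was the other way, at -0.25 and, for its 1 assembly factor, -0.54. Per length, the median level of structural subunits was higher than that of assembly factors in both libraries, at 85.2 RPKM (DMSO) and 80.2 RPKM (GANT61) against 7.90 and 7.22 RPKM, where RPKM scales reads to gene-model length and library size.

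Promoter windows are shown because NRF1, the ETS factor GABPA and YY1 are known regulators of nuclear respiratory genes, and their motifs played no part in the choice of the members. RefSeq promoters (build GRCm38.p6, from 250 bases before to 50 after the start) were found for 78 of the 97 members. The NRF1 motif, the run of 10 capitals in the first 4 sequences shown here, reads the same on both strands and was present in 7 of these 78 (8.97%) against 2.13% of the 11035 genes with a promoter among those considered. The YY1 motif AAGATGGCG was present in 9 (11.5%) against 3.29%, the ETS motif CCGGAAG, bound by GABPA among others, in 21 (26.9%) against 18.7%, and the oestrogen-related receptor motif TCAAGGTCA in 1 (1.28%) against 0.290%. The hypoxia-response core ACGTG was in 18 (23.1%) against 28.6%. Both strands were searched and the ETS, YY1 and NRF1 matches shown do not overlap. The windows are 60 bases, written 5′ to 3′ along the gene's strand in lower case with motif matches in capitals, and reach at most 30 bases past the start. Atp5g2 (chr15:102671055-102671114, minus strand), Cox6a1 (chr5:115349061-115349120, minus strand), Ndufa11 (chr17:56717677-56717736, plus strand) and Ndufaf4 (chr4:24897945-24898004, plus strand) each show the NRF1 motif.
Atp5g2: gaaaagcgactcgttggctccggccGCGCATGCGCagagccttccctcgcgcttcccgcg
Cox6a1: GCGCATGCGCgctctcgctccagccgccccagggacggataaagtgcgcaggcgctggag
Ndufa11: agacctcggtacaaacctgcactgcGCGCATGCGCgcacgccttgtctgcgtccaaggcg
Ndufaf4: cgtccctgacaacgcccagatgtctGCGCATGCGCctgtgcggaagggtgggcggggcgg
Ndufaf8 (chr11:120098904-120098963, plus strand), Cox10 (chr11:64079443-64079502, minus strand) and Atp5j (chr16:84835018-84835077, minus strand) hold an ETS and a YY1 match within the window, and Ndufs3 (chr2:90904702-90904761, minus strand) holds an ETS match on each strand.
Ndufaf8: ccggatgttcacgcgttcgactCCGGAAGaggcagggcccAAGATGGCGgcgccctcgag
Cox10: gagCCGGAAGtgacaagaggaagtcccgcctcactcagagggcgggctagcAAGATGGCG
Atp5j: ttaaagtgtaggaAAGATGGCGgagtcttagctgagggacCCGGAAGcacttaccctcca
Ndufs3: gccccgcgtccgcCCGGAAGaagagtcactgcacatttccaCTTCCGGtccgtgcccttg
Over all matched members the median log2 ratios with and without a motif were close: a median of -0.29 with the NRF1 motif and -0.30 without, -0.30 with the YY1 motif and -0.29 without, and -0.24 with the ETS motif and -0.30 without. Among the 16 matched assembly factors they lay further apart, at -0.09 for the 7 with the ETS motif and -0.29 without, 0.03 for the 2 with the YY1 motif and -0.27 without, and -0.29 for the 2 with the NRF1 motif and -0.15 without. Of the 7 with the ETS motif, Cox10, Cox14, Cox15, Cox16 and Cox20 were of complex IV. The 2 with the NRF1 motif, Ndufaf4 and Ndufaf5, were of complex I. Assembly factors had medians of -0.06 in complex IV and -0.31 in complex I, so motif and complex cannot be told apart here. The 2 with the YY1 motif, Cox10 and Ndufaf8, also held the ETS motif. The differences with and without a motif were not tested. A match is a run of letters and not a measured binding site.

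Complex I, the NADH dehydrogenase and the largest of the complexes, had the lowest median of structural subunits among complexes I, III, IV and V. Over 36 structural subunits the median log2 ratio was -0.37, and 32 had a ratio below 1, against 51.0% of all genes considered. By the smaller size, 21 (58.3%) were lower by at least 20%, against 21.5% of all genes. By the same size 1 (2.78%) was higher by at least 25%, against 24.0%. The 7 core subunits that carry the flavin and iron-sulphur clusters were all below 1, from 0.679 to 0.827. Ndufv1, which binds NADH, was at 120 CPM (DMSO) and 81.6 CPM (GANT61), a ratio of 0.679 (0.655 to 0.704), the lowest of the structural subunits and just short of the size rule. By RPKM the most abundant structural subunits of complex I in the DMSO-labelled library were Ndufb9 and Ndufb11, both accessory subunits of the membrane arm. Ndufb9 was at 223 and 151 RPKM, and its ratio was 0.680 (0.660 to 0.700 from counts). Ndufb11 was at 112 and 110 RPKM, with a ratio of 0.990 (0.959 to 1.02).

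The accessory subunits of complex I, which surround the core, held the exceptions. Their ratios ran from 0.680 to 1.32, with a median log2 ratio of -0.33 over 29 genes. Ndufa1, a small membrane-arm subunit on chromosome X (37187588 to 37191163, minus strand, GRCm38), was at 43.6 and 57.4 CPM, for a ratio of 1.32 (1.252 to 1.387). Ndufa6, a matrix-arm subunit, was at 64.1 and 73.6 CPM, with a ratio of 1.15 (1.10 to 1.20). Ndufa2, Ndufc2, Ndufb11 and Ndufb2 had intervals that included 1. Of the 36 structural subunits, the interval lay above the complex median of 0.774 in 14, below it in 9 and across it in 13. Over all genes considered, the interval lay below 1 in 40.5% and above 1 in 39.1%. A spread beyond counting error was therefore not particular to these subunits. Ndufb4c had 91 and 122 reads and a ratio of 1.47 (1.12 to 1.96), but reads may be split between it and Ndufb4, at 0.858 (0.817 to 0.902).

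The 8 complex I assembly factors had a median log2 ratio of -0.31, with 0 higher and 1 lower. Ndufaf6, which is needed for early steps of complex I assembly, was the lower member. It had 407 reads (DMSO) and 237 reads (GANT61), or 6.50 and 4.17 CPM, for a ratio of 0.642 (0.544 to 0.755). With the length trend removed its ratio was 0.6955, outside the size rule. The gene is at chr4:11051045-11076205 (GRCm38, minus strand). Ndufaf7, a mitochondrial methyltransferase needed for complex I assembly, was just outside the rule at 23.9 and 16.2 CPM, for a ratio of 0.678 (0.623 to 0.736). Ndufaf1, part of an intermediate assembly complex, was at 20.5 and 14.5 CPM, with a ratio of 0.709. The assembly factors Ndufaf4, Ndufaf2 and Ndufaf5 had ratios of 0.790, 0.818 and 0.841, with intervals below 1. Ndufaf3 at 0.904 (0.807 to 1.01) and Ndufaf8 at 1.05 (0.954 to 1.16) had intervals that included 1. In the RefSeq promoter windows shown, Ndufaf4 holds the NRF1 motif and Ndufaf8 the ETS and YY1 motifs.

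Complex III, the cytochrome bc1 complex, had all 9 members below 1, against 51.0% of all genes considered. It had 0 called and a median log2 ratio of -0.29. Its 2 core proteins and 2 redox subunits were lower by more than most of its small subunits. Uqcrc1 and Uqcrc2, the core proteins, were at 173 and 142 CPM and at 197 and 153 CPM, with ratios of 0.818 (0.794 to 0.842) and 0.778 (0.757 to 0.800). Uqcrfs1, the Rieske iron-sulphur protein, and Cyc1, cytochrome c1, had ratios of 0.789 and 0.765. The 5 small subunits had ratios of 0.761 to 0.901, lowest in Uqcr11 and highest in Uqcr10. Uqcr11 was at 158 and 119 RPKM and Uqcrh at 206 and 178 RPKM, the highest levels per length in this complex in the DMSO-labelled library. Cycs, the somatic cytochrome c that shuttles between complexes III and IV, was at 168 and 154 CPM, with a ratio of 0.917 (0.891 to 0.944).

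Complex IV, cytochrome c oxidase, had the highest median among these complexes in the full set. With members that may share reads left out, complex V was higher, at -0.18 against -0.19 for complex IV. Its 11 structural subunits, counting Ndufa4, had 0 called and a median log2 ratio of -0.15, which was -0.01 with the length trend removed. Cox4i1, the common subunit 4, was at 475 and 364 CPM, for a ratio of 0.767 (0.754 to 0.781). Cox6a1, the common subunit 6a, was the lowest, at 283 and 208 CPM with a ratio of 0.736 (0.719 to 0.753). Cox7b was the highest, at 107 and 118 CPM with a ratio of 1.10 (1.06 to 1.14), and Cox5a and Cox7a2 had intervals that included 1. By RPKM the most abundant were Cox4i1, at 493 and 376, and Cox6c, at 413 and 375. Ratios within complex IV therefore ran from 0.736 to 1.10, with 4 intervals above the complex median, 5 below and 2 across it. Over all genes considered, 40.5% of intervals lay below 1 and 39.1% above 1.

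The 10 assembly factors of complex IV had a median log2 ratio of -0.06, with 0 called. Transcripts of the haem A synthesis factors were near equal, with Cox10 at 14.3 and 14.1 CPM (ratio 0.989, 0.898 to 1.09) and Cox15 at 31.9 and 33.6 CPM (1.05, 0.987 to 1.12). The copper-delivery factors differed from each other. Cox17 was at 41.4 and 44.2 CPM, for a ratio of 1.07 (1.01 to 1.13), Cox11 at a ratio of 0.975 (0.874 to 1.09), and Cox19 at 20.9 and 15.4 CPM, for a ratio of 0.737 (0.675 to 0.803). The factors that handle the mitochondrially encoded subunit COX2 also went apart, with Cox18 at 13.3 and 15.4 CPM, for a ratio of 1.16 (1.05 to 1.27), and Cox20 at 19.6 and 14.0 CPM, for a ratio of 0.714 (0.652 to 0.781). The assembly factors Cox14 and Cox16 had ratios of 0.942 and 0.939. Cox7a2l, the supercomplex factor SCAF1, was far above the others per length at 186 and 166 RPKM, with a ratio of 0.893 (0.873 to 0.913).

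ATP synthase held the member with the highest level per length in both libraries, Atp5b. The 16 structural subunits of the enzyme had 0 called, 14 with a ratio below 1 and a median log2 ratio of -0.25. Over all genes considered, 51.0% had a ratio below 1. Atp5b, the catalytic beta subunit, was at 1216 and 959 CPM, for a ratio of 0.789 (0.780 to 0.797), and at 513 and 403 RPKM. Atp5a1, the alpha subunit, was at 811 and 700 CPM, with a ratio of 0.864 (0.852 to 0.875). Atp5d, the delta subunit of the central stalk, was the lowest at 0.718 (0.697 to 0.741). The 4 subunits of the peripheral stalk lay between 0.782 and 0.849. The c ring is encoded by 3 genes whose mature protein is the same, and these were at 68.3 and 55.1 CPM (Atp5g1), 235 and 200 CPM (Atp5g2) and 231 and 174 CPM (Atp5g3). Their ratios were 0.807 (0.771 to 0.846), 0.851 (0.830 to 0.872) and 0.755 (0.735 to 0.774), which are uncertain as far as reads were shared between them.

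The small membrane subunits of ATP synthase had no shared direction, with a median log2 ratio of 0.00 over 4 genes. Atp5l, subunit g, was at 141 and 165 CPM, for a ratio of 1.17 (1.14 to 1.21), and Atp5mpl at 77.8 and 82.2 CPM, for a ratio of 1.06 (1.01 to 1.10). Atp5j2, subunit f, was the second most abundant member of the complex per length at 293 and 277 RPKM, with a ratio of 0.948 (0.922 to 0.974). Atp5k, subunit e, had a ratio of 0.920 (0.869 to 0.973). Atp5s, a coupling factor, was at 6.79 and 4.66 CPM, for a ratio of 0.687 (0.587 to 0.802), just outside the size rule.

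**Figure D2:**
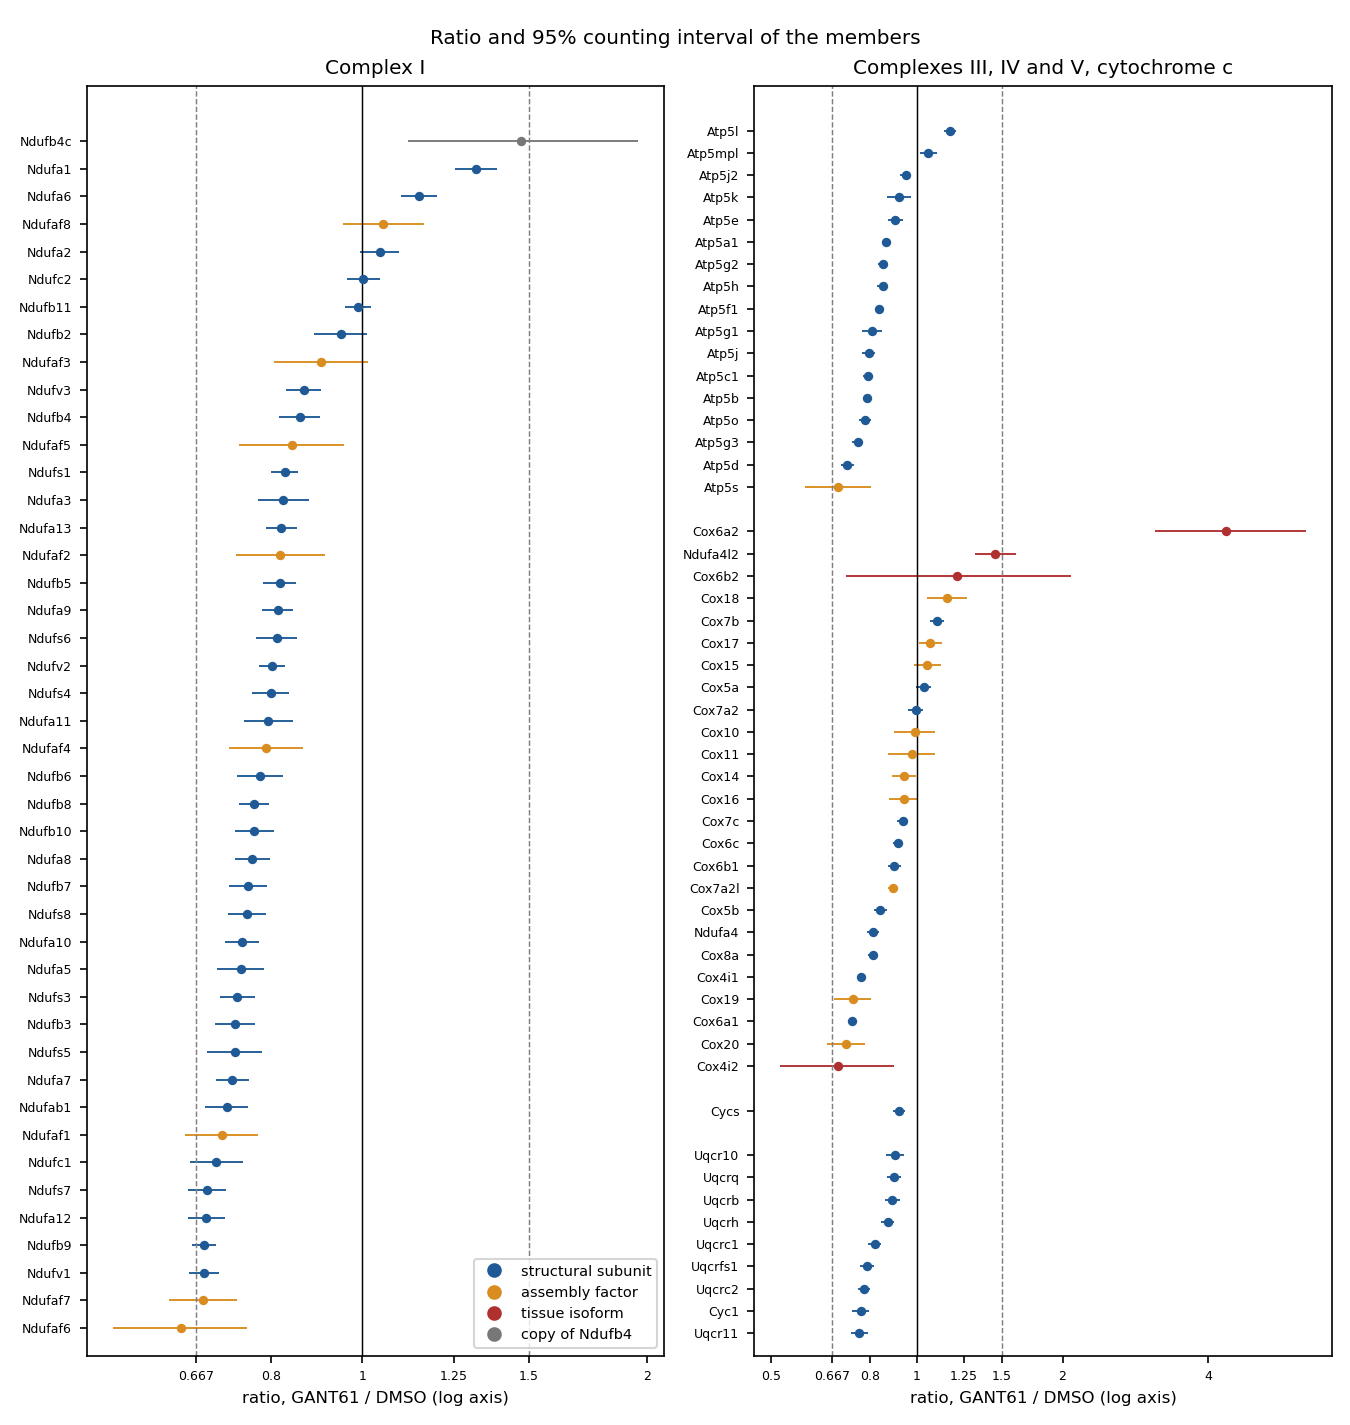
GANT61 over DMSO ratio for 96 of the 97 members (x axis, log axis) with its 95% counting interval (bars), ordered by ratio within each complex and coloured by class. The solid line is a ratio of 1 and the dashed lines are 0.667 and 1.5. Complex I points gather between 0.679 and 0.867, Ndufa1 lies at 1.32 and Cox6a2 at 4.36.

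Of the 4 tissue isoforms of complex IV, 1 was called, Cox6a2, and its direction was opposite to that of its common form. Cox6a2, the heart and skeletal muscle isoform of subunit 6a on chromosome 7 at 128205435 to 128206387, minus strand, had 41 reads (DMSO) and 164 reads (GANT61), or 0.655 and 2.89 CPM. Cox6a2 reached the floor of a mean of 1 CPM only through the GANT61-labelled library, where it is high. It was also called higher with no floor. Its ratio of 4.36 (3.11 to 6.36) was the highest of all members, while Cox6a1 was at 0.736. Beside it, 7 of 8 striated muscle markers were higher and 0 lower, with a median log2 ratio of 1.43 and summed levels of 39.6 and 94.4 CPM. Among them Myh4, a fast myosin heavy chain, was at 4.51 and 22.2 CPM and Ckm, muscle creatine kinase, at 2.09 and 8.04 CPM. Mb, myoglobin, the marker that was not called, was at 2.03 and 1.88 CPM. None of the 8 was at 0 reads, and the part of muscle transcripts in the Cox6a2 value was not tested. Relative to Cox6a1, the level of Cox6a2 per length was 0.199% in the DMSO-labelled and 1.19% in the GANT61-labelled library.

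Ndufa4l2, a hypoxia-inducible relative of Ndufa4, had 712 and 940 reads, or 11.4 and 16.5 CPM, for a ratio of 1.45 (1.32 to 1.60), just below the size rule. It passed with the length trend removed, at 1.58. Ndufa4 itself was at 171 and 139 CPM, for a ratio of 0.812 (0.788 to 0.836), so that Ndufa4l2 stood at 3.43% of its level per length in the DMSO-labelled and 6.14% in the GANT61-labelled library. Cox4i2, an oxygen-responsive isoform of subunit 4 that is high in lung, had 146 and 91 reads, a ratio of 0.688 (0.522 to 0.898). Both isoforms are known to respond to low oxygen, and their ratios lay on opposite sides of 1. Cox6b2, the testis isoform of subunit 6b, was the only member with a mean below 1 CPM, at 29 and 32 reads and a ratio of 1.21 (0.712 to 2.08). The 2 isoforms that the rule leaves out were both lower by the size rule. Cox7a1, at 216 and 95 reads, had a ratio of 0.486 (0.376 to 0.619), and Cox8b, at 717 and 52 reads, of 0.0805 (0.0591 to 0.106). Cox7a2 and Cox8a, their common counterparts, were at 0.995 and 0.812. The adipocyte markers had a median log2 ratio of -2.69 and the striated muscle markers of 1.43. The part of either list in the Cox7a1 and Cox8b values was not tested.

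**Figure D3:**
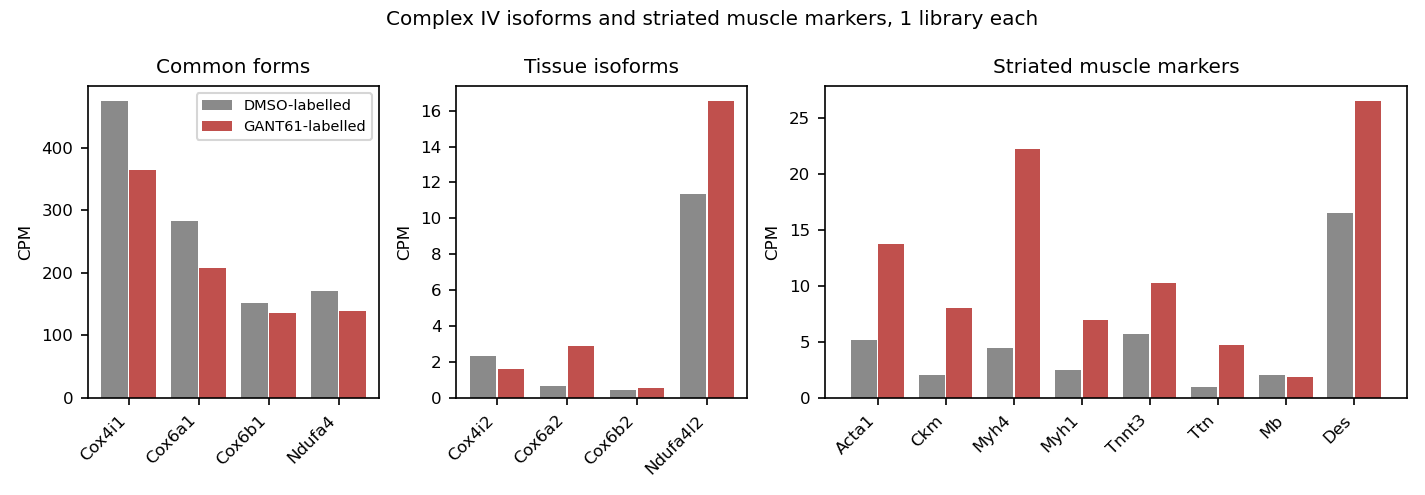
Levels (y axis, CPM) of the common forms, the tissue isoforms and 8 striated muscle markers in the DMSO-labelled (grey bars) and GANT61-labelled (red bars) library, 1 library each and so without error bars. All 4 common forms have lower bars in the GANT61-labelled library, as has the isoform Cox4i2 (2.33 and 1.60). Ndufa4l2 (11.4 and 16.5), Cox6a2 (0.655 and 2.89) and Cox6b2 (0.463 and 0.563) have higher bars, as have 7 of the 8 muscle markers. Of the 4 isoforms only Cox6a2 passed the size rule, and the interval of Cox6b2 (0.712 to 2.08) included 1.

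Genes of the same pathway outside the ID rule also had medians below 0. The 4 subunits of complex II, succinate dehydrogenase, had 0 called, with Sdha at 321 and 236 CPM (ratio 0.736, 0.720 to 0.752), Sdhb at 0.768, Sdhc at 0.804 and Sdhd at 0.952. Of 33 further genes considered, assembly factors of complexes I, III and IV and factors of ATP synthase, 0 were called. A ratio below 1 was found in 28 of these 33, against 51.0% of all genes considered, and their median log2 ratio was -0.16. Within these, factors of complex III had a median of -0.38 over 6 genes and those of complex IV -0.10 over 13. Usmg5 is a small subunit of ATP synthase and Atpif1 its inhibitor, not assembly factors. The genes of each list with the highest level per length were Dmac1 (ratio 1.27) and Lyrm2 (0.789) for complex I, Uqcc2 (0.894) and Uqcc3 (0.705) for complex III, Coa3 (0.846) and Coa5 (1.02) for complex IV, and Usmg5 (0.981) and Atpif1 (0.793) for ATP synthase.

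Among 13 regulators of mitochondrial biogenesis 1 was lower and 0 were higher, and the median log2 ratio was -0.13. Ppargc1a, the coactivator PGC-1alpha, was the lower gene, with 166 and 24 reads, or 2.65 and 0.422 CPM, and a ratio of 0.162 (0.0992 to 0.245). Its mean reached the floor of 1 CPM only through the DMSO-labelled library. Ppargc1a is also expressed in adipocytes, whose markers were lower beside it (12 of 12), and their part in its ratio was not tested. Nrf1, the transcription factor of the motif named for it, had a ratio of 1.20 (1.12 to 1.28), Gabpa of 0.931 (0.893 to 0.971) and Yy1 of 0.845 (0.813 to 0.877). Tfam and Tfb2m, which act in transcription of mitochondrial DNA, had ratios of 0.763 (0.723 to 0.804) and 0.709 (0.666 to 0.754).

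Other large sets of housekeeping genes also had medians below 0. Mitochondrial ribosomal proteins had a median log2 ratio of -0.24 over 78 genes, cytosolic ribosomal proteins of -0.20 over 89 and proteasome subunits of -0.14 over 38. By the size rule 2, 1 and 0 of them were lower and 0 in each set were higher. By the smaller size, 29 of 78 (37.2%), 11 of 89 (12.4%) and 8 of 38 (21.1%) were lower, beside 42.7% of the members and 21.5% of all genes. The share was thus above that of all genes for mitochondrial ribosomal proteins, below it for cytosolic ribosomal proteins and near it for proteasome subunits. With the length trend removed the medians were -0.16, -0.07 and -0.08, beside -0.18 for the members. The differences between these sets were not tested, since 1 library per group gives no spread to test them against.

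**Figure D4:**
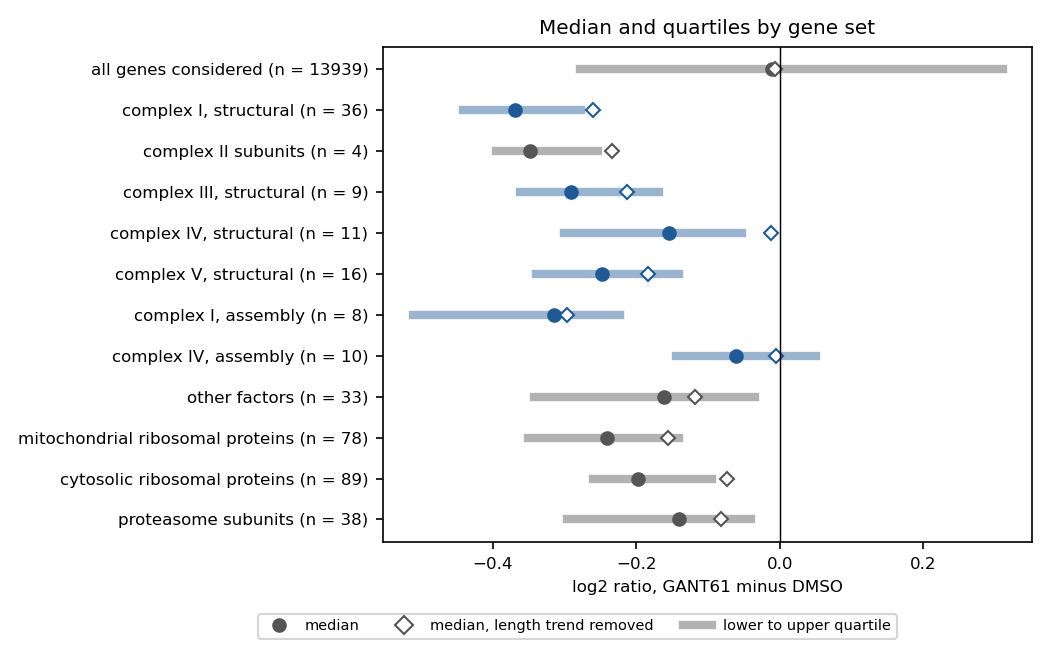
Median log2 ratio (x axis, filled circle), lower to upper quartile (bar) and median with the length trend removed (open diamond) for gene sets in rows, with the number of genes considered in brackets. Complex I sits lowest among the structural sets at -0.37, complex IV moves from -0.15 to -0.01 when the length trend is removed, and all genes considered are at -0.01.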

How the data were processed

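RNA of 2 libraries was sequenced on an Illumina instrument, as the labels state. The authors deposited expected counts (estimated reads per gene, not normalized) and RPKM values (reads scaled to gene-model length and library size). Builds mm10 and hg19 and the tools Partek, SAMtools, STAR, cutadapt and HISAT2 are named by the submitters' processing notes. For the role and version of each, and for the read counter, annotation and strand setting, nothing is given in the sources used here. Of the deposited expected counts, 23.0% (DMSO) and 22.5% (GANT61) of values differed from a whole number by more than 0.01, among them values of 35 members, so reads of near-identical genes may be split. The expected counts were rounded first.

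Columns (DH1, GANT61 and DH2, DMSO) were tied to libraries by the treatment in their names. Their numbers do not match those of the titles (6 M2+GANT61 and 4 M2+DMSO), and the direction of every ratio rests on the treatment names. Scaling used edgeR 4.0.16 in R 4.3.3. Ratios used a prior count of 0.5 per library, and intervals scipy 1.17.1. The calculation of ratios and intervals was checked on simulated counts that vary by counting error only. This checks the arithmetic, and not whether such error describes these libraries. Trends on gene length or level were removed by lowess over all genes considered (statsmodels 0.14.6, span 0.3). Scaling by library totals, upper quartile or DESeq2 1.42.0 size factors, deposited RPKM ratios, other filters, folds and prior counts, counts not rounded and leaving out shared reads were alternatives. Gene positions are from GENCODE M21 (GRCm38, the mm10 assembly). The labels name no molecular identifiers, so reads need not be independent molecules.

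The members, lists and classes were chosen with earlier results of these data known. Named genes are all called members, tissue isoforms and assembly factors, the 3 c ring genes, and per complex the structural subunits with the highest and lowest ratio and the 2 with the highest RPKM. Other named genes serve as examples of their role and were chosen after their values were seen. Outside the rule, Cox7a1, Cox8b and the complex II subunits are named. For each list of further factors the 2 genes highest per length are named, and for the biogenesis regulators the called gene. Called adipocyte, macrophage and striated muscle markers are given as counts, and not all of them are named. Results that needed 1 withheld item are not reported here.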

Additional observations from a re-analysis of the deposited data

How the results depend on the processing

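Of the members, 7 were lower with library totals and 6 with upper quartile scaling, since Ndufv1, Ndufb9, Ndufa12, Ndufs7 and Ndufaf7 (with library totals also Atp5s) lie close to the size rule. Under those scalings 11.5% and 11.4% of all genes considered were lower. With a mean of at least 10 CPM, 0 members were lower and 0 higher, because Ndufaf6 and Cox6a2 fall under that floor. With the size set at 20% lower or 25% higher, 41 were lower and 4 higher, and at a fold of 2, 0 were lower. With the level trend removed 2 were lower, the second being Cox4i2. With the length trend removed 0 were lower and 3 higher (Cox6a2, Ndufa4l2 and Ndufb4c). The length trend moved the median log2 ratios to -0.18 (all members), -0.20 (structural subunits), -0.081 (assembly factors), -0.26 (complex I), -0.21 (complex III), -0.013 (complex IV) and -0.18 (complex V). Leaving out members with shared reads moved assembly factors to -0.27, beside -0.30 for structural subunits, and complex V to -0.18, above complex IV at -0.19. Every median listed here stayed below 0 under all 13 alternatives, from -0.34 to -0.18 for all members. Over all genes, 1972 were higher and 1436 lower by the size rule, 3347 and 2994 by the smaller size, 972 and 595 at a fold of 2, and 1150 and 779 with at least 10 CPM. No paired analysis was possible because each group had 1 library. Depth limits Cox6b2, Cox6a2, Cox4i2 and Ndufb4c, which had under 200 reads in each library.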

Other observations

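The 3 members on chromosome X were singled out after their values were seen. Ndufa1 had a ratio of 1.32, Cox7b of 1.10 and Ndufb11, whose interval included 1, of 0.990, and their median log2 ratio was 0.14. The 439 genes of chromosome X considered had a median log2 ratio of 0.08, and 57.9% of them had a ratio above 1. The 5 members on chromosome 9 (Atp5l, Cox5a, Cox7a2, Ndufaf3 and Uqcrc1) had a median of -0.01, with 0.03 over the 775 genes considered there. On the other autosomes that hold members the median over the members was below 0.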
